A study of Mus musculus with 40 samples.

Results

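The 9 genes described here encode the cytoplasmic actins, *Actb* and *Actg1*, and 7 proteins that bind or regulate actin: *Pfn1*, *Cfl1*, *Tmsb4x*, *Tmsb10*, *Fscn1*, *Arhgdia* and *Myl6*. They were taken by symbol from the 26411 genes of the count files, as a set chosen by the E9.5 differences from WT that an earlier analysis of these counts gave, and all 9 passed the filter on low counts in E9.5 embryos and in LSK cells. RNA sequencing covered 40 mouse libraries in 10 groups of 4. Of these, 24 were whole embryos at embryonic day (E)9.5 from 17 litters, and 16 were LSK cells (lineage-negative, SCA-1+ and c-KIT+, a population enriched for blood stem and progenitor cells) sorted from E14.5 fetal liver of 9 litters. The comparisons ask how far the loss of KAT6A or KAT6B, related histone acetyltransferases, is matched by the loss of their acetyltransferase activity alone.

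The embryo groups were wild type (WT), *Kat6a*-/- (homozygous for the cfd null allele), *Kat6b*-/- (homozygous for the dec null allele), *Kat6a* E/E (homozygous for G656E), *Kat6b* E/E (homozygous for G577E) and the double mutant, homozygous for both point mutations. The LSK groups were WT, the single point mutants and the double mutant, with no null group. The point mutations replace a glycine of the acetyl-CoA binding site by glutamate, whereas the null alleles lack several exons. All strains were kept on a C57BL/6 background, every mutation was germline, and the 4 libraries of a group are taken as separate embryos or fetal livers, from the litters that the labels name. Whole embryos mix all tissues of the stage, so fewer cells of a type and less RNA per cell cannot be told apart.

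Actin monomers polymerize into filaments that give cells their shape, drive migration and divide cells at cytokinesis. Profilin (*Pfn1*) loads monomers with ATP and delivers them to growing ends, cofilin (*Cfl1*) severs and disassembles old filaments, and the beta-thymosins (*Tmsb4x* and *Tmsb10*) hold monomers in reserve. Fascin (*Fscn1*) bundles filaments in protrusions, *Arhgdia* encodes a GDP dissociation inhibitor that keeps small GTPases inactive in the cytosol, and *Myl6* encodes the essential light chain of non-muscle myosin. *Actb* and *Actg1* are often used as reference genes, and many actin genes are targets of serum response factor, which binds the CArG box and whose cofactors are held inactive by monomeric actin.

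In the GRCm39 assembly with GENCODE vM39, *Actb* lies at chr5:142888870-142892509 on the minus strand and *Fscn1* at chr5:142946098-142958953 on the plus strand, with 53.6 kb between their starts. *Actg1* lies at chr11:120236512-120239617 and *Arhgdia* at chr11:120468929-120472469, both on the minus strand, with 232.9 kb between their starts. The remaining genes are dispersed. *Pfn1* is at chr11:70540882-70545976, *Myl6* at chr10:128320267-128330014 and *Tmsb10* at chr6:72934330-72935737, all on the minus strand, *Cfl1* is at chr19:5540483-5545229 on the plus strand, and *Tmsb4x* is X-linked at chrX:165990089-165992311 on the minus strand. 

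Processed pseudogenes share sequence with several of the 9 genes, which bears on how far a count belongs to 1 locus. Of the 66-base windows of the *Actg1* transcript, 84.6% had an exact copy elsewhere in the genome, over 11 other loci. The shares were 64.7% for *Myl6*, 16.3% for *Cfl1*, 10.5% for *Tmsb10* and 6.31% for *Actb*, and 0 for *Pfn1*, *Tmsb4x*, *Fscn1* and *Arhgdia*. The window printed here, from coding exon 2 of 6 of *Actg1*, is shown because it is the same base for base at chr11:120238852-120238917 (minus strand) and at chr4:103420599-103420664, so a read from it cannot be placed by sequence alone.
Actg1: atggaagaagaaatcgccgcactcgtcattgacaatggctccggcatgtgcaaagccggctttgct
The counts of *Actg1* and *Myl6* are therefore uncertain as measures of 1 locus. The libraries were not strand-specific, so reads of genes on the opposite strand that overlap *Actg1* (0610009L18Rik), *Myl6* (*Smarcc2*), *Pfn1* (*Rnf167*) and *Cfl1* (*Snx32*) cannot be separated from theirs where exons overlap.

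The promoters were searched for the CArG box because it is the binding motif of serum response factor. RefSeq promoters (250 bases before to 50 after the start, GRCm38.p6) were listed for 8 of the 9 genes, all but *Actb*. The box was present on either strand in those of *Actg1* and *Myl6*, and in 1.63% of all 32851 promoters. The stretches that hold it are printed with the box in capitals, at chr11:120348536-120348645 and chr10:128493010-128493119, both on the minus strand.
Actg1: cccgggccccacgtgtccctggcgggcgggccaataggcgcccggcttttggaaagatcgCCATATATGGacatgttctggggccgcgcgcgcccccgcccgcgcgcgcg
Myl6: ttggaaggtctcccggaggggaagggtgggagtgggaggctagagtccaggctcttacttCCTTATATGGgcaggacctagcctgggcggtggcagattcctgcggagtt
The box lay 90 to 81 bases upstream of the listed *Actg1* start and 50 to 41 bases upstream of that of *Myl6*. Of the other motifs searched, GGGCGG was in the promoters of 7 of the 8 genes and 35.7% of all promoters, and TATAAA in that of *Fscn1* alone and 13.6% of all promoters.

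Total counts per library ranged from 8401990 to 23339359 in embryos and from 12270376 to 59216547 in LSK cells, and the 9 genes together took 0.678% to 0.865% and 0.626% to 0.728% of them. Some libraries stood apart. The embryos are described as male. Of the 24, however, 3 (*Kat6a*-/- replicate 2 and *Kat6b*-/- replicates 2 and 3) had 7934 to 16195 *Xist* counts and 1 to 4 counts over 4 Y-linked genes, whereas the other 21 had 0 to 6 *Xist* counts and 1453 to 3648 Y-linked counts. Among LSK libraries, 5 of 16 had 14708 to 40010 *Xist* counts. In 4 LSK libraries (*Kat6a* E/E replicate 2 and double mutant replicates 2, 3 and 4) 12600 to 13683 genes were detected, against 16082 to 17647 in the other 12. CPM gives counts as a share of the scaled library total, except for cell type markers, where the total was not scaled. *Kit* was at 331 to 547 CPM in LSK cells against 30.3 to 47.8 in embryos, whereas *Ly6a*, which encodes SCA-1, was at 0.90 to 9.9 CPM in LSK cells. Of the lineage genes of the sort, *Cd3e* and *Cd8a* were at 0 and *Itgam* reached 108 CPM.

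The 9 genes were not equally abundant in WT embryos. On the RPKM scale, which divides the count by gene length, *Actb* was the highest at 1540 ± 48.4 (SD, n=4), followed by *Pfn1* at 918 ± 19.1, *Cfl1* at 880 ± 11.2 and *Tmsb4x* at 700 ± 57.4. *Actg1*, the other cytoplasmic actin, followed at 580 ± 10.4. *Tmsb10* at 405 ± 7.87, *Fscn1* at 405 ± 12.6 and *Arhgdia* at 404 ± 7.67 lay within each other's spread, and *Myl6* was the lowest at 78.6 ± 4.08. All other neighbors in this order were separated in all 4 libraries. The shared windows of *Actg1* and *Myl6* leave the places of these 2 genes in the order uncertain. 

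**Figure D1:**
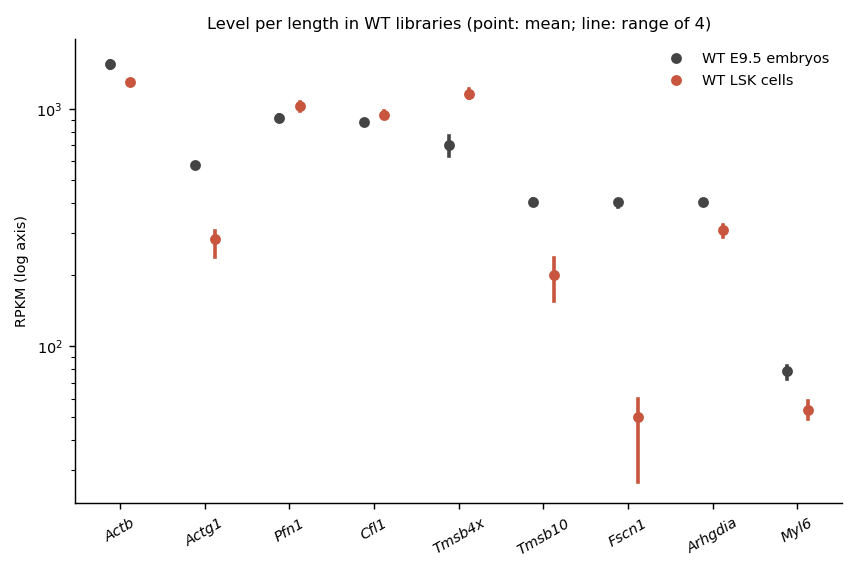
Level per length (RPKM, log axis) of the 9 genes in WT E9.5 embryos and WT LSK cells, with points for the mean and lines for the range of 4 libraries. *Actb* was the highest in both, at 1540 and 1294, and *Fscn1* was at 405 in embryos and 50.1 in LSK cells.

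In E9.5 embryos the levels of these genes in the mutants were compared with WT in 5 contrasts, which share the 4 WT embryos. Because the genes were chosen with the E9.5 results in view, their values in these contrasts are given as a description without a test. All 9 genes had a lower fitted level than WT in the double mutant and in *Kat6b*-/-, and 8 of 9 in the other 3 genotypes. The median log2 fold change of the 9 was -0.18 in the double mutant, -0.12 in *Kat6b*-/-, -0.06 in *Kat6b* E/E, and -0.09 both in *Kat6a* E/E and in *Kat6a*-/-, whereas the median over all 14183 genes tested lay between -0.00427 and 0.000544. The exception was *Tmsb4x*, with a log2 fold change of 0.00 in *Kat6a*-/-, 0.02 in *Kat6b* E/E and, for *Kat6a* E/E, 0.08.

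At FDR<0.05 (limma), 5 of the 9 genes were called in the double mutant, where 2.91% of all genes tested were called. The others were 2 in *Kat6a*-/- (2.64% of all genes), 3 in *Kat6b*-/- (0.508%), 1 in *Kat6a* E/E (0.275%) and, for *Kat6b* E/E, 0 (0.0%, with no gene called). Every called member was lower than WT. The genes were chosen by these contrasts, so nothing is read from the counts beside the shares of all genes. The model has 4 surrogate variables, which stand for unwanted variation. With none, no member was called, and of all genes 0 were called in the double mutant, 0 in *Kat6b*-/-, 111 in *Kat6a*-/-, 14 in *Kat6a* E/E and 0 for *Kat6b* E/E. Over the 20 alternatives the log2 fold change of *Actb* in the double mutant lay between -0.23 and -0.15. In *Kat6b* E/E, 4 members passed at an unadjusted P under 0.05 (limma), where 4.41% of all genes did. None was called there by edgeR's quasi-likelihood test or DESeq2. Single libraries decided some calls: none was left in *Kat6a*-/- without WT replicate 1 or 2, in *Kat6b*-/- without *Kat6b*-/- replicate 3 or 4 or WT replicate 1, 2 or 4, or in *Kat6a* E/E without *Kat6a* E/E replicate 4 or WT replicate 2 or 4. In the double mutant 4 or 5 remained when any 1 library was left out, and 2, *Actb* and *Actg1*, with a correction for GC content.

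The plot of CPM by genotype at E9.5 shows how small these differences were beside the levels themselves. 

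**Figure D2:**
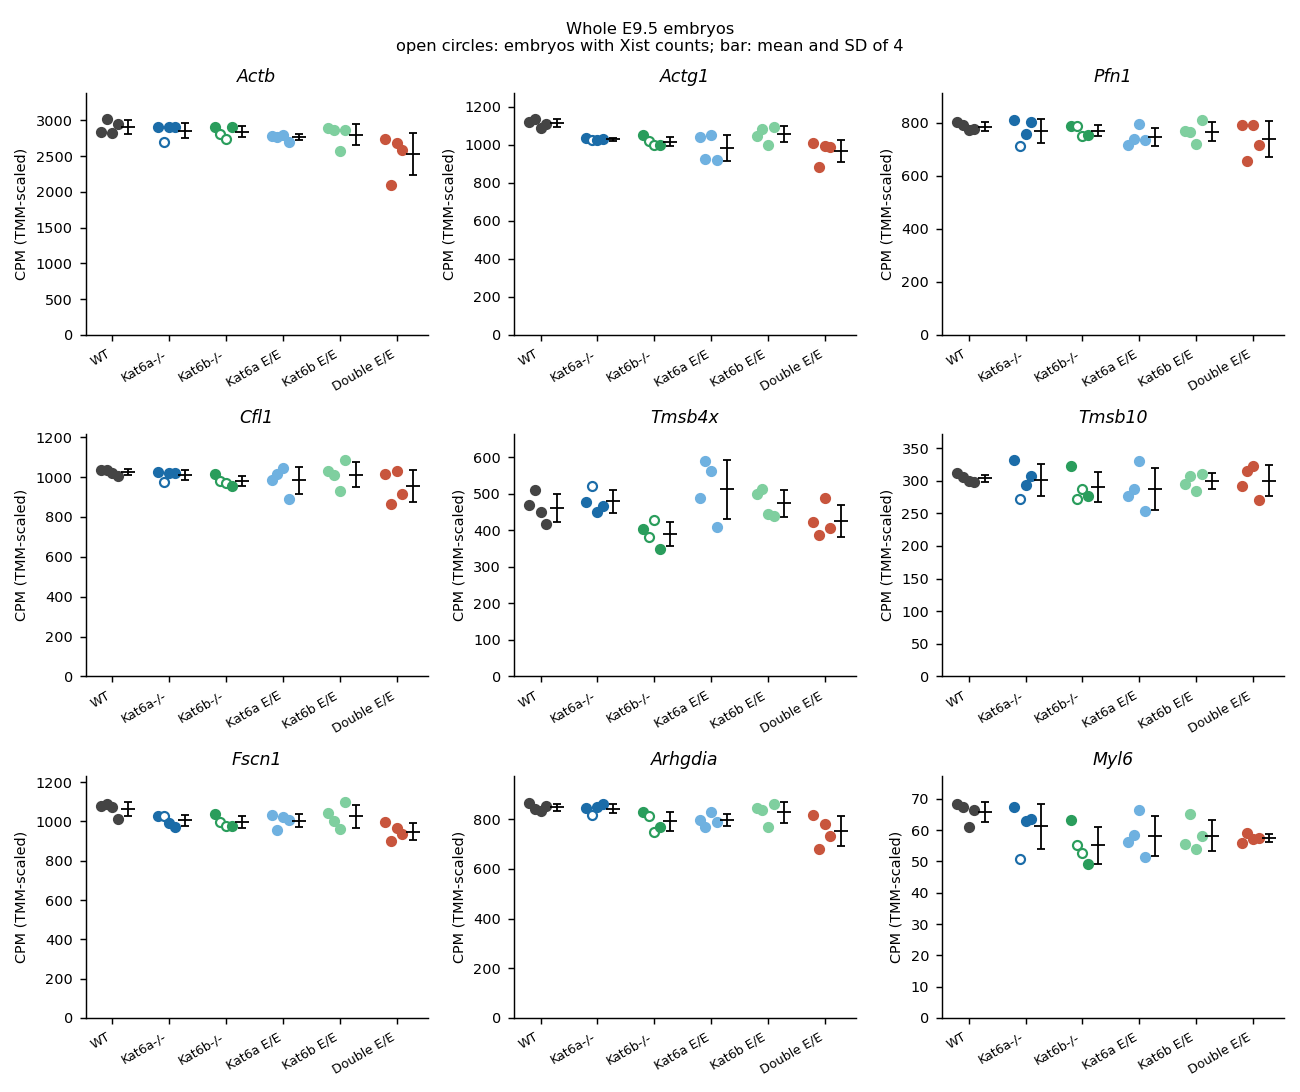
Normalized level (CPM, scaled by TMM) of the 9 genes in each of 24 E9.5 embryos by genotype, with the mean and SD of 4 embryos at the right of each group. Open circles mark the 3 embryos with *Xist* counts. *Actb* in the double mutant lay between 2096 and 2741, below the WT range of 2822 to 3023.

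*Actb*, the cytoplasmic actin with more counts, was at 2843, 3023, 2822 and 2947 CPM in the 4 WT embryos. It was at 2741, 2096, 2688 and 2590 CPM in the double mutant, every embryo of which was below every WT embryo. The log2 fold change was -0.20 (SE 0.028), which is 12.7% lower. Replicate 2 had the lowest *Actb* level of all 24 embryos. In the single mutants the *Actb* log2 fold change lay between -0.09 and -0.07. The 4 *Kat6a* E/E embryos, at 2788, 2771, 2794 and 2699 CPM, were also all below WT, whereas the ranges of *Kat6a*-/- (2702 to 2912), *Kat6b*-/- (2746 to 2903) and *Kat6b* E/E (2575 to 2891) overlapped that of WT.

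*Actg1*, whose protein differs from that of *Actb* by a few residues near the amino terminus, was at 1123, 1138, 1091 and 1108 CPM in WT. In the double mutant it was at 1010, 885, 992 and 989 CPM, and the log2 fold change was -0.21 (SE 0.034), which is 13.5% lower. *Actg1* was the one member called in 4 of the 5 contrasts, and in each of these 4 all mutant embryos were below all WT embryos. It was at 1039, 1025, 1025 and 1031 CPM in *Kat6a*-/- (log2 fold change -0.16, SE 0.033). It was at 1054, 1019, 999.1 and 998.8 CPM in *Kat6b*-/- (-0.16, SE 0.033). In *Kat6a* E/E it was at 1040, 927, 1050 and 922 CPM (-0.18, SE 0.032), with replicates 2 and 4 apart from the others. In *Kat6b* E/E, at 1046, 1081, 999.7 and 1096 CPM, 1 embryo reached the lower end of the WT range, and the log2 fold change was -0.09 (SE 0.033).

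*Pfn1* and *Cfl1*, which promote the addition and the removal of monomers, varied together: their correlation over the 24 embryos was 0.83, the highest of the 36 pairs, over libraries that share genotype, litter and depth. *Pfn1* was at 804, 792, 771 and 775 CPM in WT and at 791, 654, 792 and 717 CPM in the double mutant. *Cfl1* was at 1038, 1034, 1022 and 1008 CPM in WT and at 1016, 863, 1031 and 916 CPM in the double mutant. For both genes replicates 1 and 3 of the double mutant lay within the WT range and replicates 2 and 4 below it, and both log2 fold changes were -0.10 (SE 0.032 for *Pfn1* and 0.033 for *Cfl1*). In the other 4 genotypes the log2 fold changes lay between -0.09 and -0.06 for *Pfn1* and between -0.09 and -0.04 for *Cfl1*.

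The beta-thymosins had the smallest fitted changes in the double mutant, with log2 fold changes of -0.04 (SE 0.057) for *Tmsb4x* and -0.06 (SE 0.060) for *Tmsb10*. For *Tmsb4x* this rested on the fit, and over the 20 alternatives the value lay between -0.13 and -0.02. *Tmsb4x* was at 421, 388, 489 and 406 CPM in the double mutant, with a mean of 426 against 462 in WT. *Tmsb4x* was at 469, 510, 450 and 417 CPM in WT and at 403, 381, 427 and 350 CPM in *Kat6b*-/-, a log2 fold change of -0.18 (SE 0.057) with overlapping ranges. *Tmsb4x* is X-linked and 2 of these 4 embryos had *Xist* counts, at 381 and 427 CPM, whereas the 2 without were at 403 and 350 CPM. With a term for *Xist* in the model, added after the data were seen, the log2 fold change was -0.26 and the members called in *Kat6b*-/- were *Actg1*, *Fscn1* and *Tmsb4x*. *Tmsb10* was at 311, 306, 300 and 299 CPM in WT, and its log2 fold change lay between -0.12 (*Kat6b*-/-) and -0.03 (*Kat6b* E/E).

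*Fscn1*, which is strongly expressed in the developing nervous system, was at 1080, 1087, 1073 and 1012 CPM in WT. In the double mutant it was at 996, 899, 964 and 934 CPM, every embryo below WT, with a log2 fold change of -0.18 (SE 0.030). It was also called in *Kat6a*-/-, at 1030, 1029, 992 and 973 CPM (-0.12, SE 0.029). In *Kat6b*-/- the size was like that in *Kat6a*-/- (-0.12, SE 0.029) but the gene was just outside the threshold. *Arhgdia* was at 863, 840, 832 and 853 CPM in WT and at 817, 680, 779 and 732 CPM in the double mutant, every embryo below WT, with a log2 fold change of -0.18 (SE 0.032). It was called as well in *Kat6b*-/-, at 831, 814, 749 and 769 CPM (-0.14, SE 0.032). 

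*Myl6* had the most negative log2 fold change of the 9 genes in all 5 contrasts, although in *Kat6a* E/E that of *Actg1* was the same to 2 decimals. It was at 68.5, 67.4, 61.0 and 66.3 CPM in WT. It was at 56.1, 59.1, 57.3 and 57.4 CPM in the double mutant, every embryo below WT (-0.24, SE 0.058). It was at 63.3, 55.2, 52.9 and 49.3 CPM in *Kat6b*-/- (-0.31, SE 0.058), where 1 embryo lay within the WT range. *Myl6* was also the least abundant of the 9, and its shared windows and overlapping genes leave its counts uncertain. With the term for *Xist* it was called in neither group (-0.21 in the double mutant and -0.17 in *Kat6b*-/-).

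**Figure D3:**
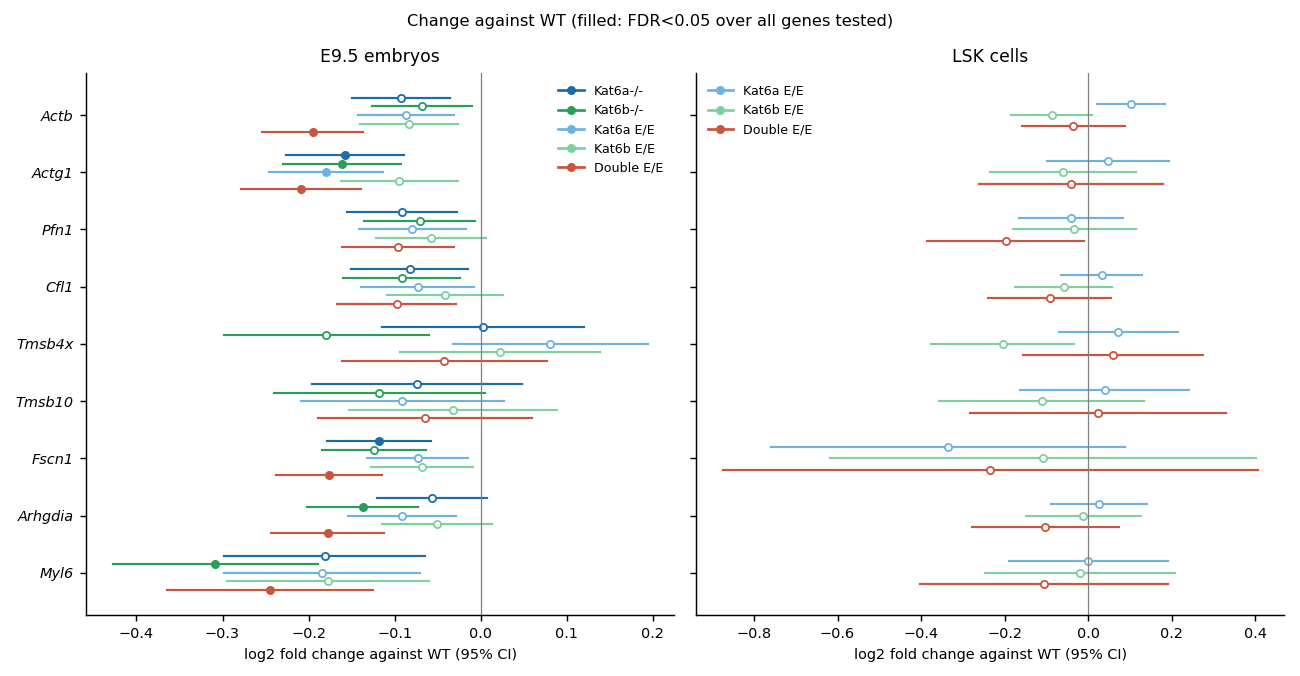
Log2 fold change against WT with its 95% confidence interval for the 9 genes, by genotype, in E9.5 embryos (left) and LSK cells (right), with filled points for FDR<0.05 over all genes tested. The filled points are 11 E9.5 values between -0.31 and -0.12, and no LSK value is filled.

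The CPM ranges come from the same embryos that chose the genes and are given as a description. Embryos of the double mutant lay entirely below the WT range for 5 of the 9 genes (*Actb*, *Actg1*, *Fscn1*, *Arhgdia* and *Myl6*), against 3.94% of all genes tested. The counts were 1 of 9 in *Kat6a*-/- (background 6.49%), 2 in *Kat6b*-/- (3.44%), 3 in *Kat6a* E/E (2.62%) and, for *Kat6b* E/E, 0 (1.14%). At E9.5, 3 mutant embryos had a WT littermate. *Kat6a* E/E replicate 1 was lower than its littermate for 9 of the 9 genes (median log2 difference -0.12), *Kat6b*-/- replicate 2 for 8 (-0.10) and *Kat6a*-/- replicate 2 for 8 (-0.09). Both null embryos were among those with *Xist* counts and their WT littermates were not, so sex differed as well within these pairs. No share over all genes is given for the littermate differences. The double mutant and *Kat6b* E/E embryos had no WT littermate, so that litter and genotype cannot be told apart for them within litters.

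The point mutants were next compared with the null mutants, in contrasts that share the mutant libraries with those above but not the WT libraries. The genes were chosen by the E9.5 values of these mutants, which can bias the differences between them. The FDR values and calls are therefore given as a description. No member was called in *Kat6a* E/E against *Kat6a*-/- (1.6% of all genes were called), with log2 differences between -0.03 and 0.08 and FDR between 0.50 and 0.99. The 95% confidence interval of the *Actg1* difference was -0.09 to 0.05 and that of *Actb* -0.05 to 0.07. No member was called in *Kat6b* E/E against *Kat6b*-/- either (0.0353% of all genes). There 8 of the 9 genes were higher in the point mutant, *Tmsb4x* by the most (0.20, SE 0.058, FDR=0.29), with all 4 *Kat6b* E/E embryos (499, 512, 445 and 439 CPM) above the 4 *Kat6b*-/- embryos. A range wholly above that of *Kat6b*-/- was seen for 268 of the 14183 genes. With the term for *Xist*, *Tmsb4x* was called in this contrast (0.28, FDR=0.021, limma). Between the double mutant and *Kat6a*-/-, 8 of the 9 genes were lower in the double mutant and none was called (0.00705% of all genes). The largest differences were those of *Arhgdia* (-0.12, SE 0.033, FDR=0.20) and *Actb* (-0.10, SE 0.030, FDR=0.21). At an unadjusted P under 0.05 the counts in the 3 contrasts were 0, 3 and 2 members (limma), beside 15.6%, 8.83% and 10.4% of all genes. No member was called by edgeR's quasi-likelihood test or DESeq2.

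Other genes of actin biology were next examined. Of 111 genes in 7 lists (muscle actins, monomer binding and turnover, nucleation, capping and crosslinking, myosin and tropomyosin, small GTPases and their regulators, and the serum response factor pathway), 109 were tested at E9.5. The lists were chosen with earlier results of these data known, so their E9.5 calls are given as a description. In the double mutant 3 fell and 1 rose, where 2.91% of all genes were called, 57 of the 109 had a fitted level below WT, and the median log2 fold change was -0.00898 against -0.000718 over all genes. *Srf*, the transcription factor of the pathway, fell from 139 ± 9.13 CPM (SD, n=4) in WT to 115 ± 19.8 CPM (log2 fold change -0.30, SE 0.060, FDR=0.0093, limma). Its ranges overlapped, at 130 to 151 CPM in WT and 90.3 to 133 CPM in the double mutant. Without surrogate variables neither *Srf* nor any other gene was called in this contrast. *Marcksl1*, a membrane-bound filament crosslinker, fell by 0.14 on the log2 scale (SE 0.030, FDR=0.012), and *Cyfip2*, a WAVE complex subunit, fell by 0.23 (SE 0.065, FDR=0.048). *Ezr*, which links filaments to the membrane, rose from 106 ± 6.11 to 128 ± 5.33 CPM (0.26, SE 0.056, FDR=0.013).

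In *Kat6a*-/- 3 listed genes rose and 1 fell, where 2.64% of all genes were called. *Ezr* (0.31, FDR=0.0043), *Arhgdib* (0.55, FDR=0.039), the blood-cell paralog of *Arhgdia*, and *Limk2* (0.18, FDR=0.042), a kinase that inactivates cofilin, rose, and *Msn*, a paralog of *Ezr*, fell by 0.21 (FDR=0.0095). In the same contrast 1 of 5 macrophage markers rose (median log2 fold change 0.57), and the summed level of all 7 listed macrophage markers had a median of 11.2 CPM against 8.71 in WT, with overlapping ranges. The part of blood cells in the *Arhgdib* value was not tested. In *Kat6b*-/- 1 of the 109 was called (0.508% of all genes), *Marcksl1*, which fell by 0.14 (FDR=0.023). No listed gene was called in *Kat6a* E/E (0.275% of all genes) or *Kat6b* E/E (0.0%). *Srf* was at 112 to 125 CPM in *Kat6a* E/E and 119 to 146 CPM in *Kat6b* E/E, against 130 to 151 CPM in WT. *Ezr* was lower in *Kat6a* E/E than in *Kat6a*-/- (-0.26, SE 0.057, FDR=0.019). None of the 4 muscle actins was called in any E9.5 contrast.

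The 2 actin genes and their neighbors along the chromosome were also compared in the double mutant. Of all genes tested in this contrast, 50.2% had a fitted level below WT and 2.91% were called. Of the 4 tested genes other than *Fscn1* that start within 250 kb of *Actb*, 4 had a fitted level below WT (median log2 fold change -0.17) and 0 were called. Of the 16 tested genes other than *Arhgdia* within 250 kb of *Actg1*, 12 had a fitted level below WT (median -0.10). Among them *Bahcc1* (-0.28, SE 0.065, FDR=0.026) and *Mcrip1* (-0.25, SE 0.065, FDR=0.034) fell. In the null and single point mutants, where 0.0% to 2.64% of all genes were called, no neighbor of either actin gene other than *Fscn1* and *Arhgdia* was called. 

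**Figure D4:**
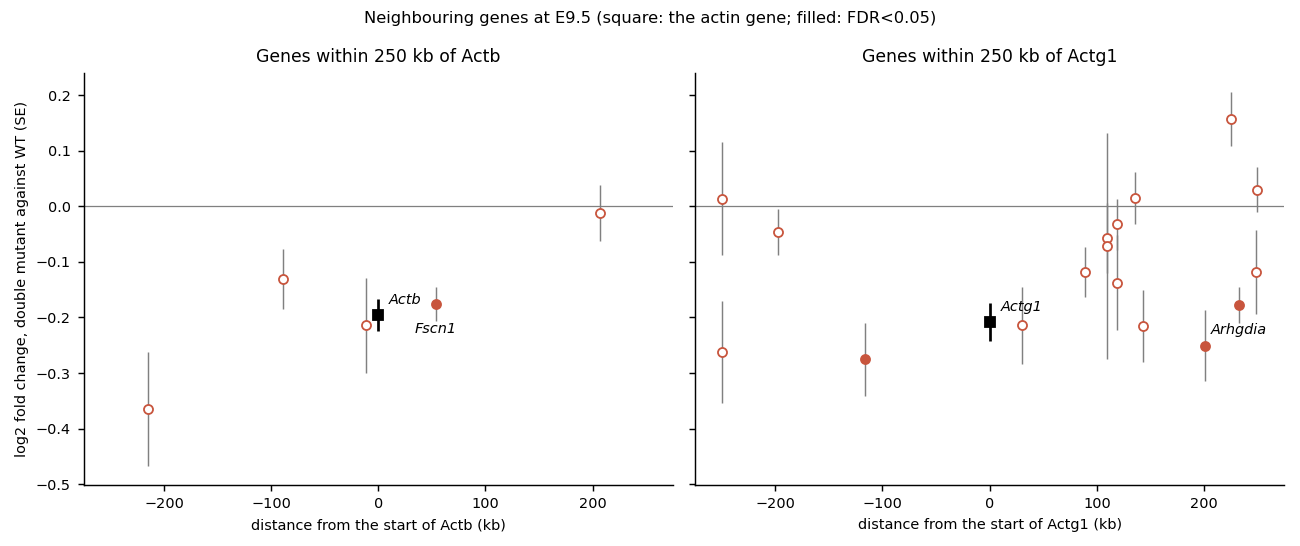
Log2 fold change in the double mutant against WT at E9.5, with its SE, for tested genes that start within 250 kb of *Actb* (left) or *Actg1* (right), by distance from the start of the actin gene in kb. Squares are the actin genes and filled circles have FDR<0.05; the filled circles are *Fscn1* at 53.6 kb, *Bahcc1*, *Mcrip1* and *Arhgdia* at 232.9 kb.

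Markers of cell types moved in some of the same embryos. In *Kat6a*-/-, 3 of 7 neural progenitor markers fell (median log2 fold change of the list -0.28) and their summed level was 484 to 646 CPM against 740 to 783 in WT, while 2 of 8 cardiac muscle markers (0.29) and 1 of 5 macrophage markers (0.57) rose and 1 of 7 mesenchyme and somite markers fell (-0.07). In *Kat6b*-/- no marker was called, but the summed neural progenitor level was 508 to 687 CPM, below WT in all 4 embryos, and the 6 tested hepatoblast markers had a median of -1.01 (summed level 10.2 to 36.7 CPM against 27.7 to 106 in WT). In the double mutant 1 of 8 cardiac markers rose (0.26) and 1 of 7 mesenchyme and somite markers fell (-0.16), the summed neural progenitor level was 602 to 687 CPM, and the summed cardiac level was 1388 to 1658 CPM against 966 to 1524 in WT. The part of tissue makeup in the values of the 9 genes was not tested.

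In LSK cells no member was called in any of the 4 contrasts made. The LSK values come from animals and litters that the E9.5 contrasts did not use, so they are tested. WT replicates 1, 2 and 3 were littermates (litter 753) and replicate 4 was from litter 1111. In *Kat6a* E/E, where 1.36% of all 13071 genes tested were called, *Actb* was at 2838, 2696, 2632 and 2723 CPM against 2540, 2555, 2574 and 2576 in WT. Every mutant library was above every WT library, which held for 247 of the 13071 genes. The direction was opposite to that at E9.5, but the difference did not pass the test (log2 fold change 0.10, SE 0.038, FDR=0.24). *Actg1* was at 572, 495, 570 and 627 CPM against 589, 583, 617 and 480 in WT, with a log2 fold change of 0.05 (SE 0.069, FDR=0.85) and a 95% confidence interval of -0.10 to 0.19.

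**Figure D5:**
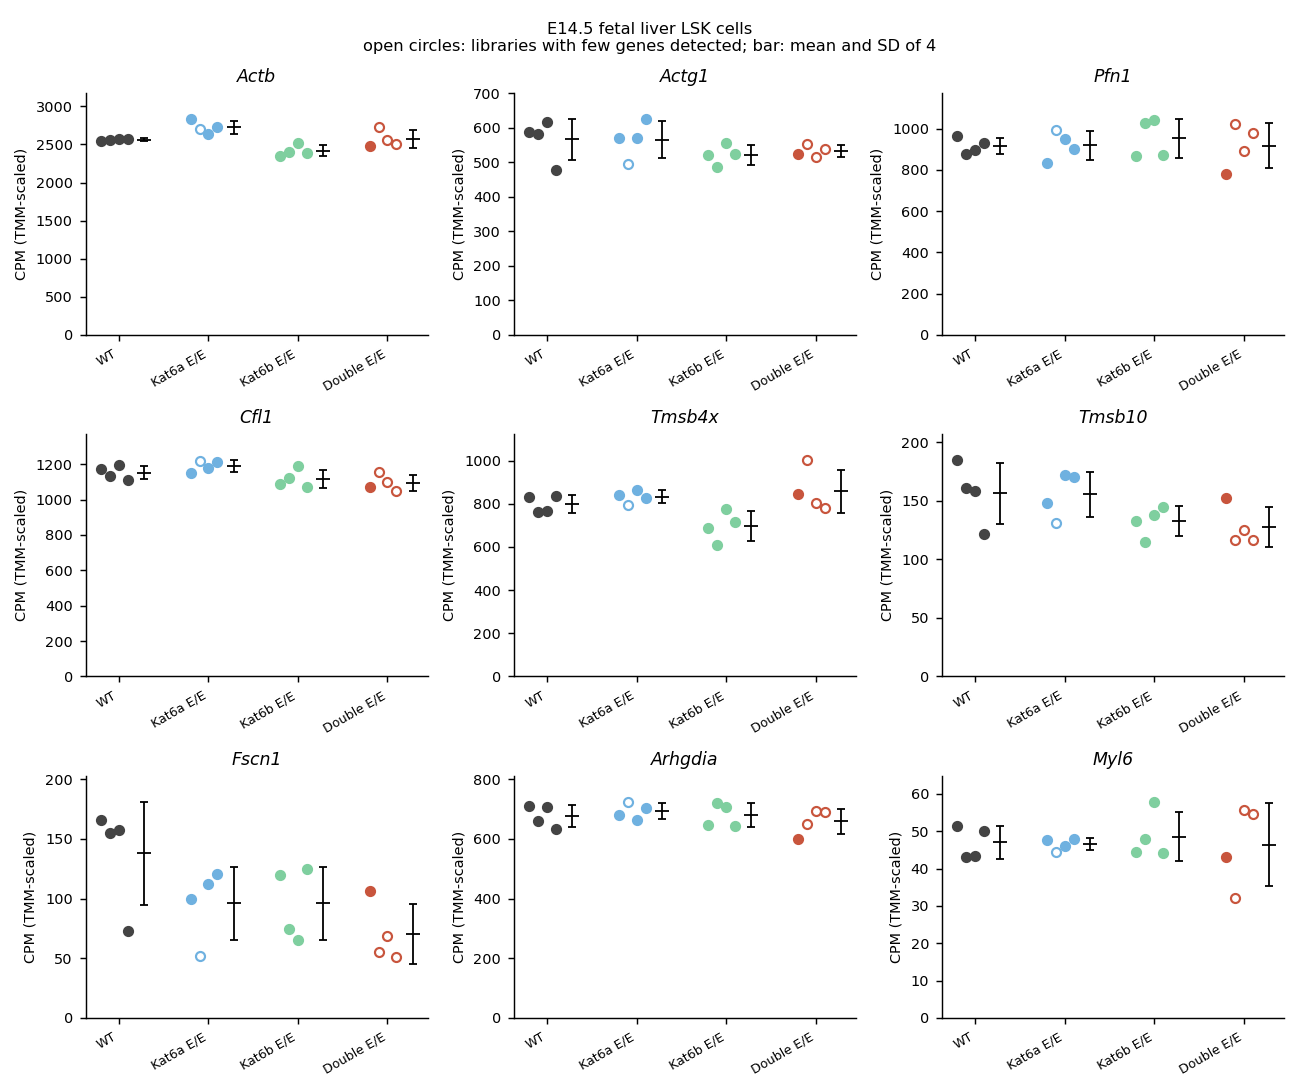
Normalized level (CPM, scaled by TMM) of the 9 genes in each of 16 LSK libraries by genotype, with the mean and SD of 4 at the right of each group. Open circles mark the 4 libraries in which 12600 to 13683 genes were detected; for *Fscn1* these lie between 51.3 and 68.3 CPM.

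*Fscn1* varied more than any other member among LSK libraries. It was at 166, 155, 157 and 73.2 CPM in WT, at 99.4, 52.2, 112 and 120 CPM in *Kat6a* E/E, at 119, 74.4, 64.9 and 125 CPM in *Kat6b* E/E and at 106, 55.5, 68.3 and 51.3 CPM in the double mutant. Replicate 4 of WT stood apart from the other 3, which were littermates of each other but not of replicate 4. The WT range overlapped that of each mutant group, and no contrast passed the test (log2 fold change -0.34, SE 0.19, FDR=0.53 in *Kat6a* E/E). In the 4 libraries with few genes detected, 3 of which were double mutants from 1 litter, *Fscn1* had a median of 53.9 CPM against 115.8 in the other 12. Without these 4 libraries, a choice made after the data were seen, *Fscn1* was called lower in *Kat6a* E/E (-0.40, FDR=0.0025, limma). The double mutant was then 1 library, so its value (-0.35) is given without a test. *Fscn1* was also called in *Kat6a* E/E without *Kat6a* E/E replicate 2 alone (-0.46, FDR=0.0049) or WT replicate 4 alone (-0.58, FDR=0.036), whereas without *Kat6a* E/E replicate 1 the log2 fold change was -0.14 (FDR=0.97). Without WT replicate 4 the WT libraries all came from a single litter, so litter and genotype are less well separated there.

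All 9 genes had a fitted level below WT in *Kat6b* E/E LSK cells, with a median log2 fold change of -0.06 against 0.01 over all 13071 genes, and 0 of all genes were called (0.0%). Before the surrogate variables were fitted, mean CPM was above WT for *Pfn1* (953 against 917), *Arhgdia* (680 against 677) and *Myl6* (48.6 against 47.0). It was below WT for the other members. The largest difference was that of *Tmsb4x* (-0.20, SE 0.081, FDR=1.00), which was at 687, 611, 774 and 716 CPM against 830, 763, 765 and 835 in WT. *Actb* was below WT in all 4 libraries, at 2346, 2405, 2515 and 2393 CPM (-0.09, SE 0.046, FDR=1.00). A range wholly below that of WT was seen for 226 of the 13071 genes. In the double mutant 7 of 9 genes had a fitted level below WT and 0 of all genes were called (0.0%). The largest fitted difference relative to its error was that of *Pfn1* (-0.20, SE 0.089, FDR=0.70), whose mean CPM before the surrogate variables were fitted was 918 in the double mutant and 917 in WT. Against *Kat6a* E/E, the double mutant had 8 of 9 genes lower and no gene called (0.0%). At an unadjusted P under 0.05, 1 member passed in each of the 4 LSK contrasts (limma): *Actb* in *Kat6a* E/E, *Tmsb4x* in *Kat6b* E/E, *Pfn1* in the double mutant and *Actb* in the double mutant against *Kat6a* E/E. Of all genes, 12.5%, 2.78%, 6.85% and 1.51% passed, in the same order. edgeR's quasi-likelihood test and DESeq2 called no member in any of the 4. Of the 100 listed actin genes tested in LSK cells, *Capg*, which caps filament ends, rose in *Kat6a* E/E (0.44, SE 0.10, FDR=0.040) and none was called in the other 3 contrasts.

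The change against WT was also set side by side between LSK cells and embryos, in 1 model of all 40 libraries. This difference subtracts the E9.5 change by which the genes were chosen as lower, which biases it upward, so it is given as a description without a test. The LSK change exceeded the E9.5 change by 0.21 (SE 0.079) for *Actg1* and 0.17 (SE 0.068) for *Actb* in *Kat6a* E/E, whereas for *Fscn1* the difference was -0.27 (SE 0.17), or -0.35 without the 4 LSK libraries of few genes. The double mutant values were 0.14 (SE 0.10) for *Actg1*, or 0.26 without LSK double mutant replicate 1, and 0.17 (SE 0.087) for *Actb*. Of all 15123 genes, 0.139% differed in *Kat6a* E/E, 0.0% in *Kat6b* E/E and 0.00661% in the double mutant.

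The WT levels themselves differed between the sources for 7 of the 9 genes, where 76.0% of all genes tested differed. Source, stage, sort and RNA input cannot be told apart in this comparison, which uses the WT embryos of the E9.5 contrasts. The genes were chosen as lower in mutants than in these embryos, which biases the differences downward. The FDR values are therefore given as a description. *Fscn1* was 83.8% lower in LSK cells (log2 difference -2.62, SE 0.15, FDR=1.3e-15), with the 4 WT libraries at 73.2 to 166 CPM against 1012 to 1087 in embryos. *Actg1* was 50.2% lower (SE of the log2 difference 0.071, FDR=7.9e-15) and *Actb* 19.5% lower (-0.31, SE 0.062, FDR=2.9e-05). *Tmsb10* was lower (-0.89, SE 0.11, FDR=6.5e-09) and *Tmsb4x* higher (0.70, SE 0.11, FDR=9.7e-07), opposite directions for the 2 beta-thymosins. *Myl6* (-0.49, SE 0.11, FDR=0.00016) and *Arhgdia* (-0.46, SE 0.062, FDR=4.9e-08) were lower. *Pfn1* (0.04, SE 0.066, FDR=0.54) and *Cfl1* (0.05, SE 0.062, FDR=0.49) were not called, and their confidence intervals were -0.09 to 0.18 and -0.08 to 0.17. TMM moved the median log2 difference of all genes from 0.039 to -0.0854, and without it *Pfn1* (0.18, FDR=0.0096) and *Cfl1* (0.17, FDR=0.0068) were called higher as well, with the other 7 genes called in the directions given.

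The order of the RPKM levels in WT LSK cells was *Actb* (1294 ± 10.6, SD, n=4), *Tmsb4x* (1155 ± 54.8), *Pfn1* (1023 ± 40.1), *Cfl1* (944 ± 30.4), *Arhgdia* (308 ± 16.9), *Actg1* (281 ± 29.9), *Tmsb10* (199 ± 33.1), *Myl6* (53.5 ± 4.84) and *Fscn1* (50.1 ± 15.8). The ranges of *Arhgdia* and *Actg1* overlapped, as did those of *Myl6* and *Fscn1*. The places of *Actg1* and *Myl6* are uncertain here too, because of their shared windows. In the same comparison 57 of the listed actin genes were lower in LSK cells and 47 higher. *Was* (7.39, FDR=3.2e-24) and *Arpc1b* (4.07, FDR=2.0e-26), which drive branched nucleation in blood cells, *Lcp1* (4.99, FDR=4.7e-25), a leukocyte bundling protein, and *Rac2* (9.18, FDR=2.8e-22), the blood-cell Rac, were higher in LSK cells. *Arhgdib* was higher by 5.62 (FDR=8.9e-26), against the lower *Arhgdia*. *Enah* (-6.24, FDR=1.7e-27), *Nckap1* (-4.72, FDR=2.1e-26) and *Cald1* (-7.22, FDR=3.2e-23) were lower, as were the 4 muscle actins.

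Over the 24 embryos the log2 CPM of the 9 genes were positively correlated in 36 of 36 pairs, with a median r of 0.53 (0.49 after the genotype means were removed), from 0.09 for *Actb* and *Tmsb10* to 0.83 for *Pfn1* and *Cfl1*. Over the 16 LSK libraries 23 of 36 pairs were positive, with a median of 0.14 and a range from -0.55 to 0.82. These are descriptions over libraries that share litter, genotype and scaling. The genes whose level was most like the mean of the 9 over the embryos (Pearson r over 24 libraries, among 9962 genes) were *Mbd3* (0.91), *Dpm2* (0.90), *Rab1b* (0.90), *Ppp2r1a* (0.89) and *Tuba1c* (0.89). Over the 16 LSK libraries, among 9300 genes, they were *Cnpy3* (0.82), *Scrn2* (0.79), *Cd52* (0.79), *Rufy1* (0.78) and *Yif1b* (0.77), so that the first 5 genes of the 2 lists were different.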

How the data were processed

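RNA from whole E9.5 embryos and from sorted E14.5 fetal liver LSK cells was sequenced as unstranded paired-end libraries, and the embryos had been selected for similar external appearance. The authors aligned reads to mm39 with Rsubread and deposited counts of read pairs per RefSeq gene from featureCounts, not normalized; no blank or summary row was among them. Genes were matched to RefSeq by gene ID (26359 of 26411). As in the study's methods, protein-coding genes off the Y chromosome that passed filterByExpr were scaled by TMM (edgeR 4.0.16) and fitted with voomLmFit (limma 3.58.1, R 4.3.3), with 4 surrogate variables from wsva, litter as a random block (correlation 0.107 in embryos, 0.331 in LSK cells, 0.305 in the joint model) and robust empirical Bayes moderation. FDR is the Benjamini-Hochberg adjusted p-value over all genes tested, which numbered 14183, 13071 and 15123. The fit was tested on simulated data with known changes. CPM and RPKM were computed from the deposited counts and TMM-scaled library totals, RPKM with the deposited gene lengths. For cell type markers, CPM used library totals without scaling. Copies were sought by exact matching of 66-base windows to GRCm39 on both strands.

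The members and the gene lists were chosen with earlier results of these data known, so that E9.5 differences of the members, from WT or between mutants, are a description. By rule, all 9 members were named in each comparison, with at most 3 called genes per list, every neighbor within 250 kb of *Actb* or *Actg1* by count, and the 5 genes most like the members with a mean of at least 10 CPM. Replicates are separate samples by their labels. The alternatives were other numbers of surrogate variables, another scaling, no filter, no litter block, a replicate block, a GC correction, edgeR's quasi-likelihood test, DESeq2 1.42.0, and leaving out each library. Library totals without TMM, a term for *Xist* and a fit without the LSK libraries of few genes were added after the data were seen. Library totals were 8401990 to 59216547 counts, and the lowest count behind a member's value was 508. The sources differ on RNA input, instrument and read length, so none is given here.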

Additional observations from a re-analysis of the deposited data

Results flagged for a closer look

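Of 90 groups of 4 libraries (9 genes in 10 groups), 5 held a library farther from the other 3 than the 95% limit of Dixon's test, which chance alone gives in about 1 of 20 groups. In *Kat6a*-/- embryos replicate 2, 1 of the embryos with *Xist* counts, was the lowest for *Actb*, at 2702 CPM against 2901 to 2912 in the others, and for *Cfl1*, at 976 CPM against 1020 to 1024. In *Kat6b* E/E embryos replicate 3 was the lowest for *Actb*, at 2575 CPM against 2868 to 2891. In double mutant embryos replicate 2 was the lowest for *Actg1*, at 885 CPM against 989 to 1010, and this embryo was also the lowest of its group for *Actb*, *Pfn1*, *Cfl1*, *Tmsb4x*, *Fscn1* and *Arhgdia*. In WT LSK cells replicate 4, from another litter than the other 3, was the lowest for *Fscn1*, at 73.2 CPM against 155 to 166.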

How the results depend on the processing

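The number of members called at FDR<0.05 depended most on the surrogate variables. With no surrogate variables 0 were called in *Kat6a*-/-, *Kat6b*-/-, *Kat6a* E/E and the double mutant at E9.5, with 2 the counts were 1 in *Kat6a*-/- and 0 in *Kat6b*-/-, and with 6 there were 7 in the double mutant (*Cfl1* and *Pfn1* in addition), 4 in *Kat6a*-/- (*Actb* and *Myl6* in addition), 4 in *Kat6b*-/- (*Fscn1* in addition) and 1, *Fscn1*, in *Kat6a* E/E LSK cells and in the difference between the stages in *Kat6a* E/E. With a GC correction the counts were 1 in *Kat6a*-/-, 1 in *Kat6b*-/- and 2 in the double mutant. The other changes in *Kat6a*-/- were to 1 without TMM, without the filter on low counts and with a replicate block. The replicate numbers did not pair the samples (17 of 60 pairs of same-numbered libraries correlated above 0.1 at E9.5 and 8 of 24 in LSK cells), and 7 of 24 embryos and 3 of 16 LSK libraries correlated best with their own number. Under the block 4 members were called in *Kat6b*-/-, with *Fscn1* and *Tmsb4x* in and *Arhgdia* out, and 5 in the double mutant.

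Of the alternatives chosen after seeing the data, the term for *Xist* gave 1 call in *Kat6b* E/E against *Kat6b*-/-, and the 12 LSK libraries with over 14000 genes gave 1 in *Kat6a* E/E LSK cells and 1 in its difference between the stages. Leaving out 1 library at a time gave 0 to 2 calls in *Kat6a*-/-, 0 to 4 in *Kat6b*-/-, 0 to 1 in *Kat6a* E/E and 4 to 5 in the double mutant at E9.5. It gave 0 to 1 in *Kat6a* E/E LSK cells and 0 to 1 in the difference between the stages in the double mutant. In WT LSK cells against embryos 7 members were called without any 1 library. The cause of these changes was not tested. edgeR's quasi-likelihood test called 2 members in *Kat6a*-/-, 2 in *Kat6b*-/-, 1 in *Kat6a* E/E and 5 in the double mutant, and DESeq2 called 2, 4, 1 and 5. No called value changed sign under any alternative. With 4 libraries a group and differences near the size of the spread between embryos, membership of the called set at E9.5 is uncertain, and replicate 2 of the double mutant had a leverage of 0.880 in the E9.5 model and 0.998 in the LSK model.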
